A study of Chromochloris zofingiensis with 12 samples.

Results

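The response of cells fed little nitrate to higher irradiance was followed by comparing HL 1 mM with LL 1 mM, 2 of the 4 conditions in which transcriptomes of the unicellular green alga *Chromochloris zofingiensis* were measured. Each condition has 3 libraries of polyA RNA from the wild-type strain CCAP 211/14, so the comparison rests on 3 libraries against 3, and the members are the 14916 genes, of 15274 in the expression table, that were not at 0 in all 12 libraries. Both groups were continuous cultures fed medium with 1 mM nitrate, diluted by 0.5 of their volume per day under a cycle of 12 h light and 12 h dark at 25 °C and pH 7.5, and cells were taken 4 h after the light came on. The groups differed in irradiance, whose maximum at the surface was 1000 µE in HL and 300 µE in LL (µmol photons per square metre and second). HL 10 mM and LL 10 mM, the same pair of irradiances with 10 mM nitrate, enter the fit, its normalization and the mean levels over 12 libraries, and are shown beside the response at 1 mM. Per the study's methods, sampling ran over 3 days in a row and was done in triplicate, but neither the methods nor the labels tie the 3 libraries of a group to those days or to separate cultures. P-values therefore reflect the spread among libraries, which may be technical, and nothing wider.

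As background, green algae in bright light receive more energy than carbon fixation can use. They respond by making less light-harvesting antenna and more of the carotenoids that quench excited chlorophyll and reactive oxygen, and nitrogen limitation sharpens the problem because growth consumes less of the absorbed energy. In *C. zofingiensis* the pathway runs from phytoene to lycopene and then divides. The ε- and β-cyclases open the α-carotene branch, which ends in lutein, while a pair of β-rings gives β-carotene. Hydroxylases turn β-carotene into zeaxanthin, and ketolases turn it into canthaxanthin, a red secondary carotenoid. Astaxanthin, another of these, needs both, as ketolases make it from zeaxanthin by way of adonixanthin. Zeaxanthin can also be epoxidized to violaxanthin, which is de-epoxidized again in excess light or converted to neoxanthin.

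Expression was given as decimal values, taken to be FPKM, which count fragments relative to transcript length and to the size of the library. The unit was inferred from the values and the tools. Such values are shares of a library, so a change in the total RNA of a cell cannot be seen in them. The median gene stood at 17.8 to 19.0 FPKM in the LL 1 mM libraries and at 19.8 to 20.8 in those of HL 1 mM, and 13053 to 13314 genes reached 1 FPKM in each of these 6 libraries. For tests, log2(FPKM + 1) was quantile-normalized over the 12 libraries and fitted with limma. Fold changes are on that scale, where the pseudocount shrinks differences of weakly expressed genes, and levels are deposited FPKM. All log2 fold changes are HL over LL, and ± beside them gives the standard error of the fit.

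Raising the irradiance at 1 mM nitrate changed few genes by 2-fold or more. With both thresholds, an adjusted p under 0.05 and at least 2-fold, 41 genes were higher (0.275% of the genes tested) and 60 lower (0.402%), which together are 0.677%. The rises had a median log2 fold change of 1.36 and the falls one of −1.47, and 8 of the rises and 9 of the falls reached 4-fold. In each of the 101 genes the normalized values of the HL 1 mM libraries lay all above or all below the LL 1 mM libraries, which held for 26.4% of all genes. Another 13 genes differed by 2-fold or more without passing the test. For 14257 genes (95.6%) the 95% interval of the difference lay within 2-fold in either direction. With no fold threshold, the adjusted p passed for 421 higher genes (2.82%) and 360 lower ones (2.41%), and with the replicate number as a block 671 and 637.

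The split of the smaller changes depended on the scaling. Genes higher in HL 1 mM made up 53.9% of those passing the adjusted p after quantile normalization, 81.3% (698 higher, 161 lower) with no normalization, where the median gene was shifted by 0.10 on the log2 scale, and 39.0% with libraries scaled to the same median. Among the genes changed by at least 2-fold the share was 40.6%, 48.5% and 37.5%. Of the 41 genes higher, 40 were also called without normalization, as were 50 of the 60 genes lower. The counts at the adjusted p alone also moved by over 1.5 times with the libraries used, to 218, 206 and 251 higher without HL 1 mM replicates 1, 2 and 3 and to 176, 190 and 726 without LL 1 mM replicates 1, 2 and 3. The lower genes numbered 176, 178, 213, 134, 143 and 610 in the same fits.

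**Figure D1:**
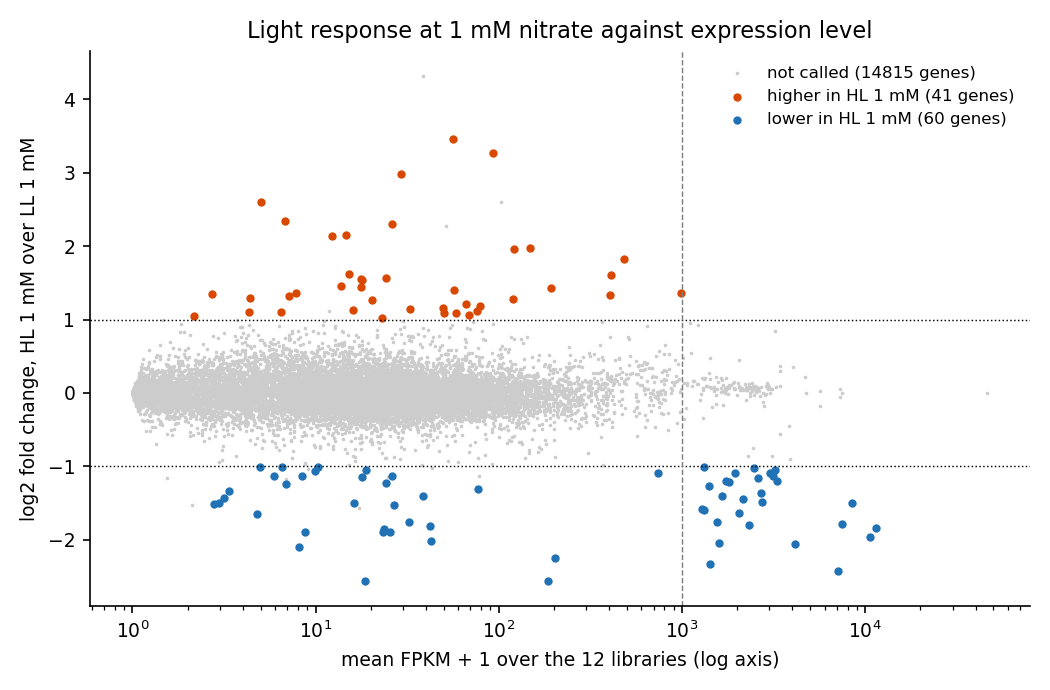
Log2 fold change of each of the 14916 genes in HL 1 mM over LL 1 mM (vertical) against its mean FPKM + 1 over the 12 libraries (horizontal, log axis), with the 41 genes called higher in orange, the 60 called lower in blue and 2-fold marked by dotted lines. To the right of the dashed line at 1000 FPKM, 28 genes lie below the lower dotted line and none is called above the upper one.

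The genes repressed by light at low nitrate included many of the most abundant transcripts. Of the 171 genes with a mean of 1000 FPKM or more over the 12 libraries, a class added after seeing the data, 28 fell by at least 2-fold (16.4%, against 0.402% of all genes). None rose by that much, at the adjusted or at an unadjusted p under 0.05, while without a fold threshold 9 were higher at the adjusted p and 23 at an unadjusted p under 0.05. Without HL 1 mM replicate 3, 2 genes of the class passed as higher, and without LL 1 mM replicate 3, 1 did. The 28 genes are 46.7% of the repressed genes. Their log2 fold changes ran from −1.01 to −2.42, with a median of −1.47, whereas the median of the other abundant genes was 0.06. No repressed gene had a mean between 737 and 1276 FPKM, and the most abundant activated gene had a mean of 983 FPKM. The 28 falls became 29 without normalization, 31 with median scaling, 24 with only the 6 libraries at 1 mM and 26 to 28 in the fits without 1 library. When abundance was taken from the 6 libraries at 10 mM nitrate alone, which are not contrasted here but share the normalization and the estimate of spread, 29 of 176 genes at 1000 FPKM or more fell (16.5%) and the number that rose was again 0.

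In lower classes of abundance the calls were rarer. Between 100 and 1000 FPKM, 8 of 1193 genes rose and 3 fell, between 10 and 100 FPKM 24 of 8064 rose and 15 fell, and between 1 and 10 FPKM 9 of 3626 rose and 14 fell. Under 1 FPKM none of 1862 genes passed both thresholds, and 4 were higher and 3 lower at the adjusted p alone, on a scale that compresses changes at that level. The medians of all classes lay between −0.01 and 0.05 on the log2 scale.

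Summed over the 60 repressed genes, the deposited level was 46205, 48921 and 46251 FPKM in the LL 1 mM libraries and 17127, 16309 and 16816 in those of HL 1 mM. The same genes summed to 197730, 219010 and 217770 FPKM in LL 10 mM and to 102160, 128750 and 112480 in HL 10 mM, so that the 4 conditions did not overlap. The 28 abundant genes alone held 4.55 to 4.74% of the summed FPKM in LL 1 mM, 1.63 to 1.73% in HL 1 mM and 18.1 to 19.2% in LL 10 mM. The 41 activated genes summed to 2605, 2905 and 2804 FPKM in LL 1 mM and to 8197, 8333 and 6135 in HL 1 mM, in the order of the replicate numbers. These genes stood at 1080 to 1269 FPKM in LL 10 mM and 3487 to 3864 in HL 10 mM. The sums describe genes chosen by this comparison, and no test was made of them.

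**Figure D2:**
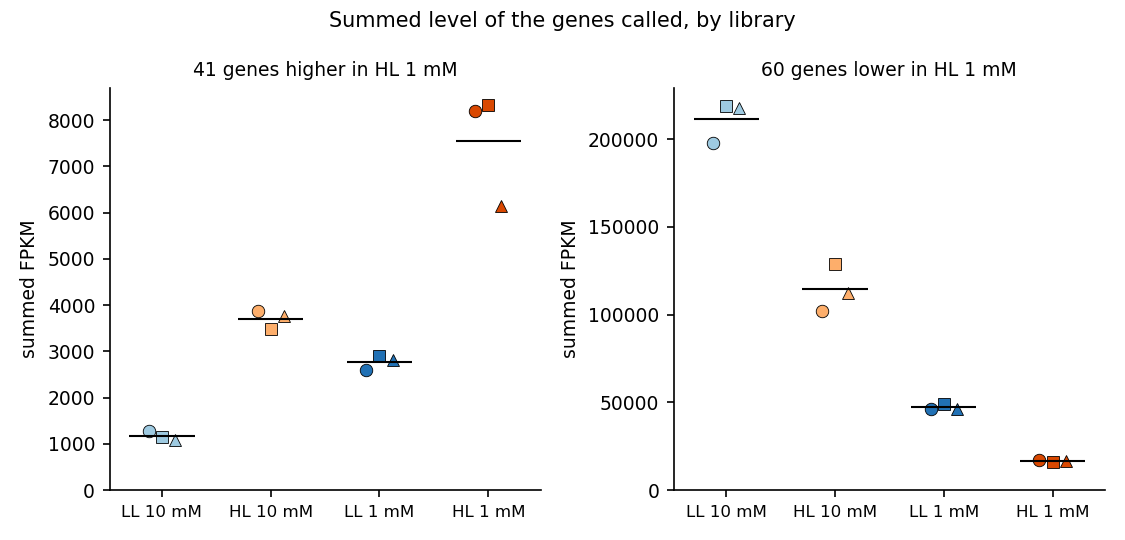
Summed deposited FPKM of the 41 genes called higher (left) and the 60 called lower (right) in HL 1 mM against LL 1 mM, in each of the 12 libraries (circles, squares and triangles for replicates 1, 2 and 3, lines for means of 3). HL 1 mM holds the highest sums on the left, with replicate 3 the lowest of the 3 at 6135 FPKM, and the lowest sums on the right.

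By the means of the 4 conditions, HL 1 mM was the highest in 37 of the 41 activated genes and HL 10 mM in 4, and LL 10 mM was the lowest in 31. Among the 60 repressed genes HL 1 mM was the lowest in 51, and LL 10 mM was the highest in 41 and LL 1 mM in 15. Over all genes tested, HL 1 mM had the highest mean in 27% and the lowest in 34.4%. That LL 1 mM was never the highest of an activated gene, nor the lowest of a repressed one, follows from the call itself. The call also favours HL 1 mM as the highest of an activated gene and the lowest of a repressed one. The counts for HL 1 mM are therefore a description, and the shares over all genes are no test of them.

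The files do not pair gene IDs with products, and only the extremes of the other genes are given. The largest rise by the rule used was that of Cz17g16050. It stood at 16.7, 16.1 and 16.7 FPKM in LL 1 mM and at 206, 202 and 136 FPKM in HL 1 mM. The groups lie far apart, and HL 1 mM replicate 3 is the lowest of its group. On the log2 scale it rose by 3.46 ± 0.13 (standard error; adjusted p = 1.61e-07), and at 10 mM nitrate it was 2.85 (adjusted p = 1.83e-06), from 1.44 to 1.71 FPKM in LL 10 mM and 17.3 to 21.9 in HL 10 mM. The gene Cz08g00120 went from 28.3, 34.9 and 34.4 FPKM to 388, 345 and 225, which is 3.27 ± 0.21 on the log2 scale (adjusted p = 7.72e-06). Here too replicate 3 of HL 1 mM was the lowest. In LL 10 mM this gene had only 1.06 to 1.85 FPKM, and its log2 fold change at 10 mM nitrate was 2.66 (adjusted p = 3.36e-05).

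Cz16g02180 and Cz04g04050 fell the most. Cz16g02180 stood at 60.03, 44.7 and 37.7 FPKM in LL 1 mM and at 9.70, 8.20 and 10.8 in HL 1 mM, which is −2.56 ± 0.23 on the log2 scale (adjusted p = 0.000103). At 10 mM nitrate it was listed at 9.18 to 21.2 FPKM in LL and at 0 in all 3 HL libraries. Cz04g04050 stood at 39.2, 35.2 and 36.6 FPKM in LL 1 mM and at 8.21, 5.49 and 9.47 in HL 1 mM, also −2.56, with a standard error of 0.17 (adjusted p = 1.18e-05). Its highest level by far was in LL 10 mM, at 529 to 657 FPKM, and at 10 mM nitrate its log2 fold change with light was −2.89 (adjusted p = 7.85e-06). These 4 genes kept their calls in every fit that left out 1 library. They were picked as the largest changes among called genes whose groups do not overlap, so this is a description.

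HL 1 mM replicate 3 had the lowest normalized value of its group in 27 of the 41 activated genes, against 38.2% of all genes tested. Without it, limma called 46 genes higher and 68 lower. Over the fits that left out 1 library, the most activated genes were the 57 called without LL 1 mM replicate 3, and the fewest the 30 called without LL 1 mM replicate 1. In the repressed genes HL 1 mM replicate 2 was the lowest of its group in 40 of 60, against 29.0% of all genes tested. What lay behind these differences between libraries was not tested.

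Called genes of the same direction were sometimes neighbours in the gene order that the IDs give. Of the 37 activated genes placed on a chromosome, 6 had an adjacent activated gene (16.2%, against 0.512% of all 14249 placed genes), and of the 58 repressed genes placed, 11 had an adjacent repressed gene (19%, against 0.793%). The longest run of activated genes held 4, all on sequence not placed on a chromosome, and the longest of repressed genes 3. Cz16g02180 is the first gene of a run of 3 on chromosome 16, whose members fell by 2.105 to 2.564 on the log2 scale. Neighbouring genes of similar sequence can share reads, and how far these runs count the same fragments was not tested. Chromosome 14 held the largest share of called genes, 8 activated and 4 repressed (1.83% of its 655 genes), and chromosome 10 the smallest (0.273%).

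The 25 genes that the study lists as carotenogenic were the only genes with names. Per the study's methods, their IDs came from the literature and Phytozome. The study reported their response in these same samples, so their direction here is not independent evidence for its results. At 1 mM nitrate 5 rose with light and 2 fell at the adjusted p (28% of the list, against 5.24% of all genes tested), and 18 did not pass. At an unadjusted p under 0.05 the numbers were 11 and 4, together 15 of 25, against 21.5% of all genes tested in either direction. The median log2 fold change of the list was 0.14, beside −0.00 over all genes, and for 23 of the 25 genes the 95% interval lay within 2-fold. In 13 of the 25 all HL 1 mM libraries lay above all LL 1 mM libraries, against 13% of all genes tested. In 4 they all lay below, against 13.4%. A single gene, CRTISO2, also passed the 2-fold threshold. The list's 7 calls fell to 4 and 2 without HL 1 mM replicates 1 and 2, and to 2 and 3 without LL 1 mM replicates 1 and 2. Those of CRTISO2 and BKT1 held in every fit that left out 1 library, while each of the other 5 was lost in at least 3 such fits.

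**Figure D3:**
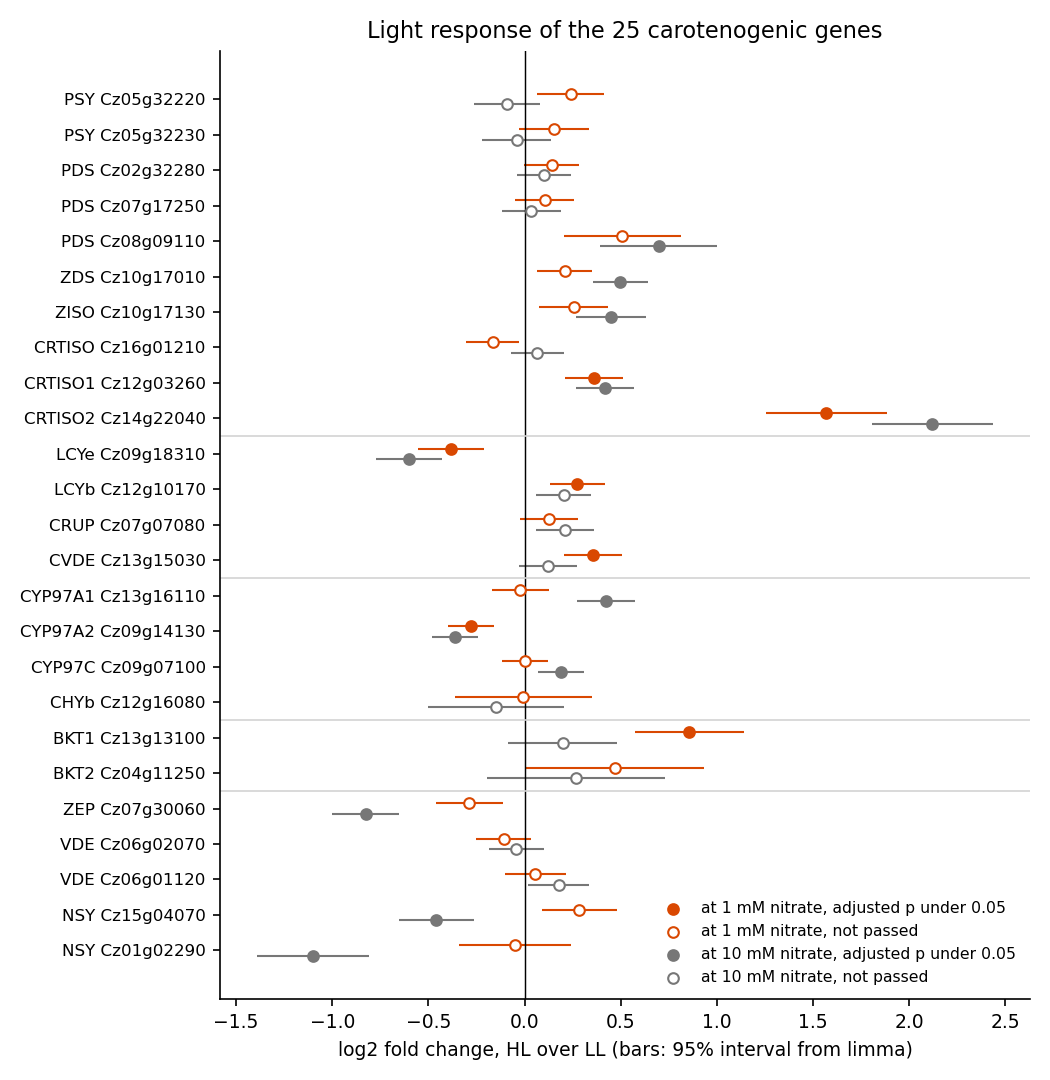
Log2 fold change with light of the 25 carotenogenic genes, grouped by pathway step. Orange points are HL 1 mM over LL 1 mM and grey points HL 10 mM over LL 10 mM. Bars give the 95% interval of the limma fit, and filled points mark an adjusted p under 0.05. Among the orange points, CRTISO2 at 1.57 and BKT1 at 0.86 lie farthest to the right. LCYe at −0.38 is the lowest orange point that passed.

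Upstream of lycopene, phytoene synthase (PSY) joins geranylgeranyl units and desaturases (PDS, ZDS) lengthen the conjugated chain. Isomerases (ZISO, CRTISO) change the geometry of its double bonds. Of the 10 genes of these steps 2 rose, none fell, and the median log2 fold change was 0.22. At an unadjusted p under 0.05, which 21.5% of all genes passed, 6 were higher and 1 lower. CRTISO2 (Cz14g22040), one of the carotenoid isomerase genes, stood at 17.4, 18.2 and 17.0 FPKM in LL 1 mM and at 57.1, 59.2 and 46.2 in HL 1 mM. The groups do not overlap, and HL 1 mM replicate 3 is again the lowest of its group. The rise was 2.97-fold (1.57 ± 0.14 on the log2 scale, adjusted p = 0.000107).

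CRTISO1 (Cz12g03260) went from 27.4, 28.2 and 27.2 FPKM to 38.9, 37.4 and 37.1 (log2 fold change 0.36, standard error 0.07, adjusted p = 0.0133). Its adjusted p was 0.0539 and 0.0526 without HL 1 mM replicates 1 and 2, 0.0549 without LL 1 mM replicate 1 and 0.0968 with median scaling. The remaining isomerase gene, CRTISO (Cz16g01210), had 38.7, 35.8 and 35.8 FPKM in LL 1 mM and 36.3, 35.7 and 34.1 in HL 1 mM, and did not pass (−0.17, 95% interval −0.30 to −0.03, adjusted p = 0.156).

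Phytoene synthase, the entry step of the pathway, is represented by Cz05g32220 and Cz05g32230, whose IDs are adjacent, so their reads may be shared between them. Cz05g32220 stood at 75.8, 78.9 and 73.5 FPKM in LL 1 mM and at 96.5, 95.7 and 89.8 in HL 1 mM, groups that do not overlap, with a log2 fold change of 0.24 (95% interval 0.07 to 0.41, adjusted p = 0.111). That of Cz05g32230 was 0.15 (95% interval −0.03 to 0.33, adjusted p = 0.309). Neither passed.

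The phytoene desaturase gene Cz08g09110 had the largest difference among the upstream genes that missed the threshold. It went from 11.7, 14.5 and 14.96 FPKM to 24.0, 21.8 and 18.7 (log2 fold change 0.51, 95% interval 0.20 to 0.81, adjusted p = 0.062). Its call depended on the fit, with an adjusted p of 0.0338 without HL 1 mM replicate 3 and 0.0218 without normalization. The other PDS genes, Cz02g32280 and Cz07g17250, had log2 fold changes of 0.14 and 0.11, ZDS one of 0.21 (adjusted p = 0.0941) and ZISO one of 0.26 (adjusted p = 0.104). For ZDS and ZISO all HL 1 mM libraries lay above all LL 1 mM libraries.

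At the division of the pathway the cyclases moved in opposite directions. LCYe (Cz09g18310), the ε-cyclase of the lutein branch, stood at 69.4, 65.7 and 63.4 FPKM in LL 1 mM and at 59.0, 50.0 and 53.2 in HL 1 mM, a change of −0.38 ± 0.08 on the log2 scale (adjusted p = 0.0192). LCYb (Cz12g10170), the β-cyclase, rose from 93.8, 99.8 and 104.8 FPKM to 121, 124 and 127 (log2 fold change 0.27, standard error 0.07, adjusted p = 0.0378). CVDE (Cz13g15030), which the study groups with the β-cyclases and whose counterpart in *Chlamydomonas* is a violaxanthin de-epoxidase related to lycopene cyclases, went from 21.3, 21.2 and 23.8 FPKM to 29.1, 30.6 and 31.4 (log2 fold change 0.36, standard error 0.07, adjusted p = 0.0154). In none of these 3 genes do the groups overlap, which held for 26.4% of all genes tested.

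These 3 calls were small in size and rested on few libraries. LCYb was lost in 8 of the fits without 1 library, with adjusted p from 0.0541 to 0.15, and LCYe and CVDE in 4 each, with 0.0594 to 0.0823 and 0.053 to 0.068. With no normalization the adjusted p of LCYe was 0.0551, and with median scaling those of LCYb and CVDE were 0.197 and 0.0721. CRUP (Cz07g07080), of the same step, did not pass (0.13, 95% interval −0.02 to 0.28, adjusted p = 0.309).

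Of the 4 hydroxylase genes, whose enzymes add hydroxyl groups to the rings of the carotenes, 1 fell and 3 did not pass. CYP97A2 (Cz09g14130) fell from 89.8, 85.3 and 85.2 FPKM to 76.1, 74.8 and 75.5 (log2 fold change −0.28, standard error 0.05, adjusted p = 0.0157), a call lost without normalization (adjusted p = 0.061) and in 4 of the fits without 1 library (0.0518 to 0.0712). For CYP97A1 and CYP97C the differences were bounded closely, at −0.02 (95% interval −0.17 to 0.13) and 0.00 (−0.12 to 0.12). The interval of CHYb, a β-carotene hydroxylase that leads to zeaxanthin, was wider (−0.01, −0.36 to 0.35). It had 92.7, 85.8 and 76.8 FPKM in LL 1 mM and 102.9, 96.7 and 69.5 in HL 1 mM, and the groups overlap. The signs of CYP97A1, CYP97C and CHYb turned under other scalings.

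BKT1 (Cz13g13100), a β-carotene ketolase of the route to canthaxanthin and astaxanthin, had the second largest rise of the list. It stood at 37.1, 34.9 and 38.0 FPKM in LL 1 mM and at 79.1, 72.7 and 58.2 in HL 1 mM, a rise of 1.81-fold (log2 fold change 0.86, standard error 0.13, adjusted p = 0.0039). The groups do not overlap, with HL 1 mM replicate 3 the lowest of its group. BKT2 (Cz04g11250) had low values, 1.47, 1.64 and 1.94 FPKM in LL 1 mM and 3.70, 3.73 and 2.56 in HL 1 mM, and did not pass (0.47, 95% interval 0.01 to 0.94, adjusted p = 0.223). Its groups do not overlap either, and the pseudocount shrinks changes at such levels. Under the other settings its log2 fold change reached 0.73, and its adjusted p from limma stayed at 0.0704 or above.

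**Figure D4:**
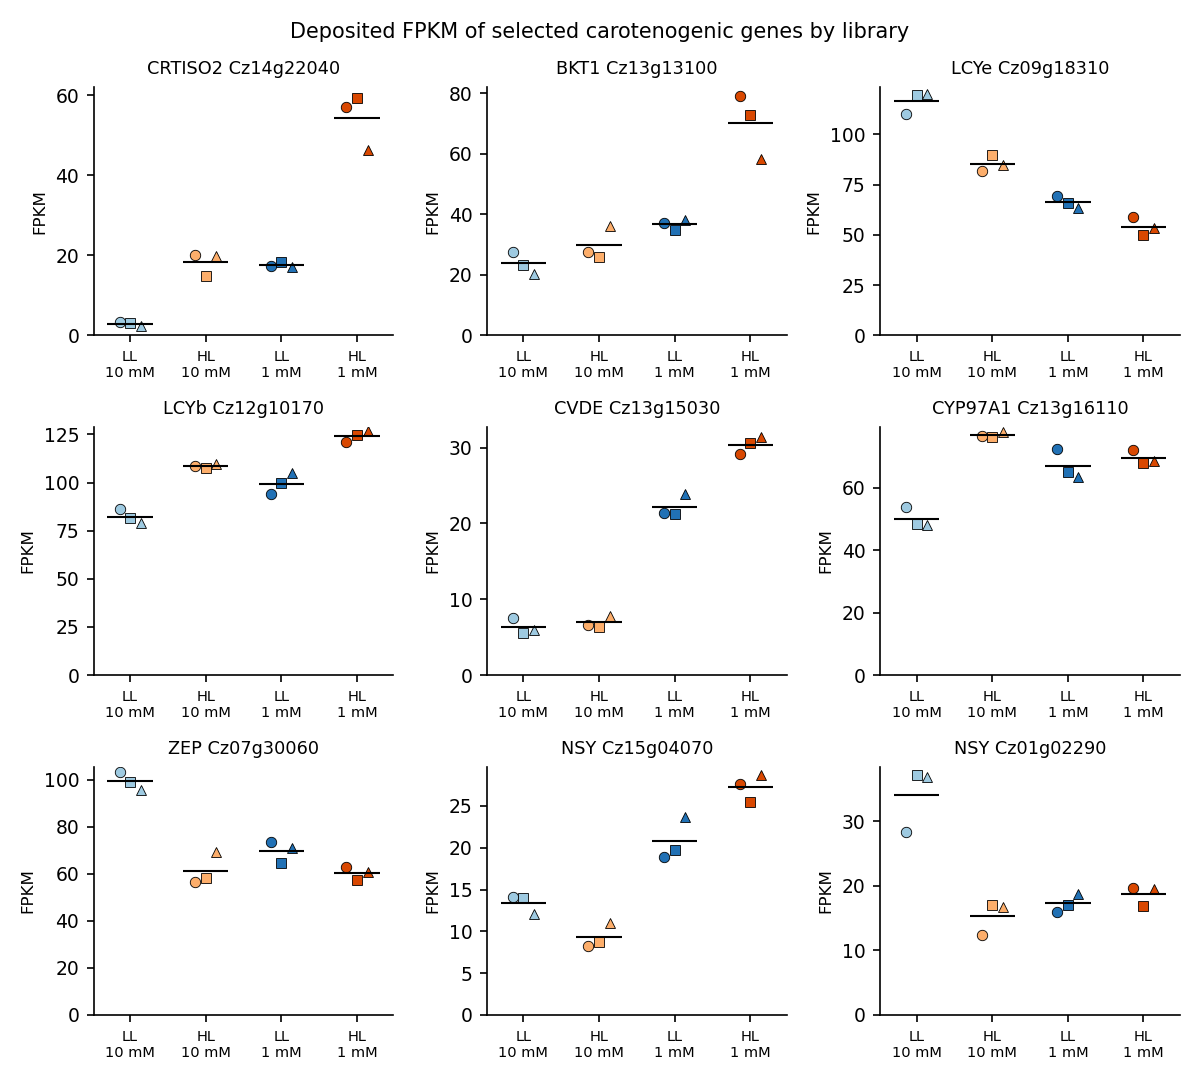
Deposited FPKM of carotenogenic genes in each of the 12 libraries, by condition (circles, squares and triangles for replicates 1, 2 and 3, lines for means of 3). For BKT1 and CRTISO2 the HL 1 mM libraries lie above those of the other 3 conditions, and BKT1 replicate 3 is the lowest of its group at 58.2 FPKM.

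None of the 5 genes listed for the xanthophyll cycle and neoxanthin formation, which leave out CVDE, passed at 1 mM nitrate, and at an unadjusted p under 0.05 there was 1 in each direction, beside 21.5% of all genes. ZEP (Cz07g30060), which epoxidizes zeaxanthin, went from 73.3, 64.5 and 70.7 FPKM to 62.7, 57.4 and 60.7, groups that do not overlap (−0.29, 95% interval −0.46 to −0.11, adjusted p = 0.0654). The VDE genes, which encode the reverse reaction, had log2 fold changes of −0.11 (Cz06g02070, 95% interval −0.25 to 0.03) and 0.06 (Cz06g01120, −0.10 to 0.22). Of the NSY genes, which act in neoxanthin synthesis, Cz15g04070 had 18.9, 19.7 and 23.7 FPKM in LL 1 mM and 27.6, 25.5 and 28.7 in HL 1 mM (0.28, 95% interval 0.09 to 0.48, adjusted p = 0.0928), and Cz01g02290 did not pass either (−0.05, −0.34 to 0.24, adjusted p = 0.889).

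The light response at 1 mM nitrate was set beside that at 10 mM, which has no library in common with it but shares the normalization and the estimate of spread. At 10 mM nitrate 70 genes were higher in HL (0.469%) and 168 lower (1.13%), together 1.6%, and without a fold threshold 866 (5.81%) and 846 (5.67%). Of the 41 genes activated at 1 mM, 22 were also called higher at 10 mM (53.7% of the 41, 31.4% of the 70), 37 had the same sign, and the median log2 fold change at 10 mM was 1.05. Of the 60 repressed genes, 19 were also called lower at 10 mM (31.7% of the 60, 11.3% of the 168), 47 had the same sign, and the median was −0.66. No gene was called in opposite directions, and at the adjusted p alone 1 of the 60 was higher at 10 mM. Over all genes the sign was shared by 49.2%.

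In the other direction, the genes called at 10 mM moved less at 1 mM. The 70 genes higher at 10 mM had a median log2 fold change of 0.39 at 1 mM, where 49 had the same sign and 32 passed the adjusted p as higher. The 168 genes lower at 10 mM had a median of −0.22, with 109 of the same sign and 50 that passed as lower. In both directions the genes were chosen for their size in one of the comparisons.

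**Figure D5:**
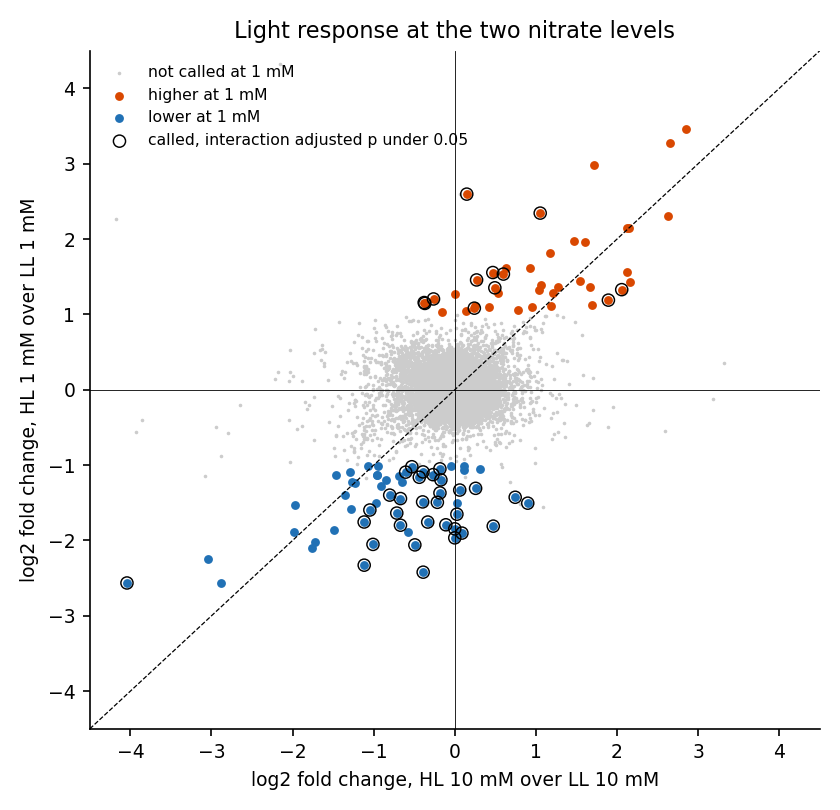
Log2 fold change of each gene with light at 1 mM nitrate (vertical) against that at 10 mM (horizontal). Genes called higher at 1 mM are orange and those called lower are blue. Of the orange points 37 of 41 lie to the right of 0 on the horizontal axis, and of the blue points 47 of 60 lie to the left of it.

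The difference between the light responses was tested as an interaction, the log2 fold change at 1 mM minus that at 10 mM. At an adjusted p under 0.05 and a difference of at least 2-fold it was positive for 176 genes (1.18%) and negative for 90 (0.603%), together 1.78%, and at the adjusted p alone for 463 (3.1%) and 354 (2.37%), together 5.48%. Positive differences were 66.2% of the larger ones, 82.5% without normalization and 74.8% with median scaling. Of the 171 abundant genes 31 had a negative difference at the adjusted p alone and 4 a positive one, 31 and 0 without normalization and 34 and 0 with median scaling. Of the 28 abundant genes that fell at 1 mM nitrate, 20 were also lower at 10 mM at the adjusted p, with a median of −0.57, and 23 had a negative difference. Those 28 were chosen by their fall at 1 mM, which enters the difference, so this count is a description.

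Among the 25 carotenogenic genes the interaction passed for 4 (16%, against 5.48% of all genes tested). At an unadjusted p under 0.05 it was positive for 6 and negative for 5, against 23.5% of all genes in either direction. At the adjusted p it was positive for both NSY genes and ZEP. These fell with light at 10 mM nitrate, as did only LCYe and CYP97A2 among the other genes of the list. NSY Cz01g02290 stood at 28.3, 37.2 and 36.8 FPKM in LL 10 mM and at 12.4, 17.0 and 16.7 in HL 10 mM, while at 1 mM its groups overlapped at 15.9 to 19.6, and the difference was 1.05 (adjusted p = 0.0153). For NSY Cz15g04070 it was 0.74 (adjusted p = 0.012), with a fall at 10 mM of 0.46 on the log2 scale and a log2 fold change of 0.28 at 1 mM that did not pass. For ZEP it was 0.54 (adjusted p = 0.0267), from −0.83 at 10 mM and −0.29 at 1 mM.

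CYP97A1 had a negative difference of −0.45 (adjusted p = 0.0306), from a log2 fold change of 0.42 at 10 mM and −0.02 at 1 mM. The calls of CYP97A1 and ZEP were lost in 8 and 7 of the fits without 1 library, with adjusted p from 0.0572 to 0.07 and from 0.0509 to 0.0727. For BKT1 the log2 fold change at 10 mM was 0.20 (adjusted p = 0.361), and the difference of 0.66 from the response at 1 mM did not pass (95% interval 0.26 to 1.06, adjusted p = 0.0586). CRTISO2 rose at both levels, by 2.12 at 10 mM, from 2.29 to 3.26 FPKM in LL and 14.8 to 20.1 in HL, and its difference was −0.55 (95% interval −0.997 to −0.107, adjusted p = 0.13), which passed without normalization (−0.75, adjusted p = 0.0429) and with median scaling (−0.84, adjusted p = 0.0257).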

How the data were processed

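PolyA RNA of the 12 libraries was sequenced, and per the methods the authors checked reads (FastQC), aligned them (HISAT2) and estimated transcript abundance (StringTie). The deposited values were read as FPKM, normalized by the authors for length and library. The number of mapped fragments could not be recovered from them, so the counting error of each value is unknown, although the methods state an approximate number of reads per sample. Groups came from the sample labels. The values were transformed as log2(FPKM + 1), quantile-normalized and fitted with limma 3.58.1 in R 4.3.3, with 1 mean per condition and a shared spread over 12 libraries. P-values were adjusted over 14916 genes by Benjamini-Hochberg. Calls needed an adjusted p under 0.05 together with 2-fold or more, and carotenogenic genes at the adjusted p alone. The fit was also run on simulated data with independent noise in each library. That noise lacks the shared deviations of same-numbered libraries, so the run cannot show how the fit handles them. An exact permutation test of 3 libraries against 3 cannot go below 0.1 and was not used.

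The text names the 25 carotenogenic genes of the study's list and the 2 largest rises and falls among called genes whose groups do not overlap. Members and lists were chosen with earlier results of these data known. Lists by gene product were not analysed here, since the files used pair no other IDs with products. Same-numbered HL 1 mM and LL 1 mM libraries deviated together, with correlations of 0.371, 0.146 and 0.443. Those between same-numbered HL 10 mM and LL 1 mM libraries were 0.238, 0.174 and 0.292. The numbers were treated as a pairing only in the fits with a replicate block, and the main fit had no such term. The pairing comes from the data, as the labels do not say what a number marks. At 10 mM the correlations were 0.419, 0.077 and 0.002. Alternatives were another pseudocount, a filter on low means, other scalings, trended and robust moderation, the replicate block, the 6 libraries at 1 mM alone, and leaving out each library.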

Additional observations from a re-analysis of the deposited data

Results flagged for a closer look

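The light response differed between the nitrate levels, by the test of the interaction at an adjusted p under 0.05 (limma) and at least 2-fold, for 266 genes. Among the genes named in the report the difference (response at 1 mM minus response at 10 mM, log2) passed at the adjusted p for CYP97A1 (−0.45), ZEP (0.54), NSY Cz15g04070 (0.74), NSY Cz01g02290 (1.05) and Cz16g02180 (1.48). For both NSY genes it passed in every fit that left out 1 library. For Cz16g02180 the HL 10 mM libraries are listed at 0, so that the size of its difference depends on the pseudocount (4.40 with 0.1), and its call was lost in 6 of the fits without 1 library (adjusted p from 0.0563 to 0.0856) and with genes of a mean under 1 FPKM left out (1.03, adjusted p = 0.0793).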

How the results depend on the processing

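The counts of genes changed by at least 2-fold at 1 mM nitrate moved by less than 1.5 times under every alternative that kept both thresholds, and without 1 library they ranged from 79 to 120 in all, 30 to 57 higher and 49 to 68 lower. At the adjusted p alone they were 781 (421 higher, 360 lower), at 10 mM 1712 (866 and 846) and for the interaction 817 (463 and 354). The higher and lower counts at the adjusted p alone became 698 and 161 without normalization, 188 higher with median scaling, 214 and 177 with only the 6 libraries at 1 mM, 671 and 637 with the replicate block, and 820 and 671 with a block within each nitrate level, chosen after seeing the data. Without 1 library they ranged from 176 to 726 and from 134 to 610. The block gave 107 calls (42 higher, 65 lower) at both thresholds and changed no call of a carotenogenic gene at 1 mM.

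With a pseudocount of 0.1 the 10 mM comparison called 397 genes (138 higher, 259 lower), and without 1 library 203 to 282 (69 to 85 higher, 134 to 197 lower). Positive interactions numbered 307 without normalization and 267 with median scaling. Without 1 library the interaction passed for 124 to 377 genes, 77 to 267 positive and 47 to 110 negative. The carotenogenic calls were 3 (3 higher, 0 lower) with only the 6 libraries at 1 mM, 2 higher with median scaling and 0 lower without normalization, and without 1 library 2 to 8, with 2 to 6 higher and 0 to 3 lower. Abundant genes called higher ranged from 0 to 2 and lower from 26 to 28 without 1 library, and 24 were lower with only the 6 libraries at 1 mM. The causes were not tested.

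The sign turned, never with a call, for CYP97A1 (0.0532), CHYb (0.0591) and NSY Cz01g02290 (0.107) without normalization, for CYP97C (−0.0816) with median scaling, and without 1 library for CYP97A1 (−0.061 to 0.0392), CYP97C (−0.0284 to 0.0187) and CHYb (−0.118 to 0.171). Over the values of single genes, 968 alternatives kept direction and side of the threshold, 54 lost the call, 16 gained it and 10 turned sign. The mapped fragments behind each value are unknown, and values under 1 FPKM are compressed by the pseudocount, so changes of such genes were hardly detectable.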
